A study of Homo sapiens with 6 samples.

Results

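NEDD9 and the focal adhesion proteins that work with it were followed at the RNA level in the human breast cancer line MDA-MB-231. The set is a list of gene symbols, drawn up with earlier results of these data known, and holds 10 of the 26255 symbols in the table: the 4 scaffolds of the CAS family (NEDD9, BCAR1, EFS and CASS4), the kinases PTK2 and SRC, the adaptors CRK and CRKL, the exchange factor DOCK1 and the adhesion protein PXN. The cells had been infected with lentivirus for either a control hairpin (shNT) or one directed at GPR81, the lactate receptor encoded by HCAR1, and grown in puromycin, so both groups are stably transduced, drug-selected populations of 1 line. Each group was represented by 3 RNA-seq libraries, and the comparison asks how these genes differed between the groups. Which of the study's hairpins the sequenced cells carried is not given in the sources used here, and nothing says that the libraries of a group came from separate cultures, so p-values measure the spread between these libraries.

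CAS proteins are scaffolds without enzymatic activity that gather at focal adhesions, the sites where integrins tie the actin cytoskeleton to the matrix. There the focal adhesion kinase encoded by PTK2, together with SRC, phosphorylates tyrosines in the substrate domain of a CAS protein. The phosphorylated tyrosines bind the SH2 domains of CRK and CRKL, which bring DOCK1, an activator of the small GTPase RAC1, and so couple adhesion to membrane protrusion and cell movement. NEDD9 is known for promoting invasion and metastasis in several tumour types, and it also binds the mitotic kinase AURKA.

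Before the members, the targeted gene was read in every library as a check of the labels. FPKM are fragments scaled by transcript length and by a scale for each library. HCAR1 was at 0.968, 1.02 and 1.36 FPKM in shNT and at 0.978, 0.891 and 0.396 FPKM in the libraries labelled shGPR81. These levels stood for 37, 40 and 52 reads against 40, 36 and 16 reads. The groups overlapped, and the log2 fold change of -0.57 had a standard error (SE) of 0.31 and an adjusted p of 0.380 in limma. The paper reports reduced GPR81 in its knockdown lines by RT-qPCR and western blotting, but the RNA-seq values here do not separate the groups. Every fall or rise below is therefore one of the libraries labelled shGPR81 relative to shNT. Of the markers known to be high in this line, VIM, CD44, AXL, CAV1 and MSN were expressed in every library. MSN rose by 0.30 on the log2 scale (adjusted p of 0.0378 in limma, under 0.05 in 2 of the 6 fits that left out a library), and VIM was higher and CD44 lower without overlap but short of the threshold. Of the markers known to be low or absent in it, ESR1, PGR and CDH1 were listed at 0 in all 6 libraries, while GATA3 was at 1.21 ± 0.112 FPKM in shNT and 1.37 ± 0.0245 FPKM in shGPR81 and FOXA1 at 1.58 ± 0.371 and 1.71 ± 0.285 FPKM. Of the markers of other cell types CD3E, CDH5, DCN and LUM were listed at 0 throughout. Nearly all of the summed FPKM of these markers was CD14, at 2.24, 4.29 and 3.62 FPKM in shNT and at 1.74, 1.14 and 1.58 FPKM in shGPR81, without overlap and with an adjusted p of 0.0562 in limma. The sum without CD14 was at most 0.136 FPKM, and the part of CD14 in the results was not tested. The steps between low FPKM values put the libraries at about 12300000 to 13100000 reads, a rough figure with quartiles over genes of 10200000 and 13400000. This assumes FPKM scaled by each library's mapped reads, which was not tested.

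The NEDD9 row of the table sums transcripts from starts that lie far apart on chromosome 6, so a change in it cannot be assigned to a start. To show what differs between them, the 250 bases before an upstream start and before the downstream start are given below from RefSeq (GRCh38.p14, minus strand, written 5′ to 3′), at chr6:11382349-11382598 and chr6:11232669-11232918. Capitals mark matches to GGGCGG (GC box) or CCAAT, searched on both strands.

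NEDD9 upstream start: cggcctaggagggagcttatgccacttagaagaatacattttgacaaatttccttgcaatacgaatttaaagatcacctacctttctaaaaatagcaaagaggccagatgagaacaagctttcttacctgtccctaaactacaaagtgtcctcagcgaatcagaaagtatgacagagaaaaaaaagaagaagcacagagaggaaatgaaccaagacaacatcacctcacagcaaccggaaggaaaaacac
NEDD9 downstream start: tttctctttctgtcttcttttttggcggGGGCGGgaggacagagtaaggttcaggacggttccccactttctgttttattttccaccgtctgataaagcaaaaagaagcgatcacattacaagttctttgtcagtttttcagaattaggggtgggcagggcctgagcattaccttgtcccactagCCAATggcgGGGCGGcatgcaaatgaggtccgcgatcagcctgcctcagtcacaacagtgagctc

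The upstream sequence held neither motif and the downstream sequence held 2 GC boxes and 1 CCAAT. Over the window of 300 bases that adds the 50 bases after the start, GC content was 42.0% upstream and 52.7% downstream, with 6 and 13 CG dinucleotides, where the median of all promoters was 58.7% and 14. Promoters were matched for 7 of the 10 genes, 14 in all. GGGCGG was found in 9 of these 14 and in 45.0% of all 35116 promoters, CCAAT in 4 and in 34.6%, and the cAMP response element TGACGTCA in 0 and in 1.85%. These matches are letters in a window and say nothing about binding.

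The 10 genes covered a wide range of levels. PXN was the highest, with a shNT mean of 83.2 ± 7.57 FPKM (SD, n = 3 here and below). CRK, at 49.99 ± 2.71 FPKM, and PTK2, at 48.9 ± 2.45 FPKM, came next and were not apart in either group. Then followed BCAR1, SRC and DOCK1 near 20 FPKM, with shNT means of 21.4 ± 2.64, 20.9 ± 1.13 and 19.4 ± 0.903 FPKM. In shNT, SRC was not apart from either of its neighbours, whereas in shGPR81 the highest SRC value, 16.8 FPKM, was below the lowest of BCAR1, 19.5 FPKM, and of DOCK1, 19.6 FPKM. CRKL, at 17.7 ± 0.680 FPKM, was below DOCK1 in both groups. NEDD9 followed at 1.76 ± 0.128 FPKM and EFS at 0.407 ± 0.243 FPKM. CASS4, the CAS scaffold also called HEPL, was listed at 0 in every library and was not tested.

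**Figure D1:**
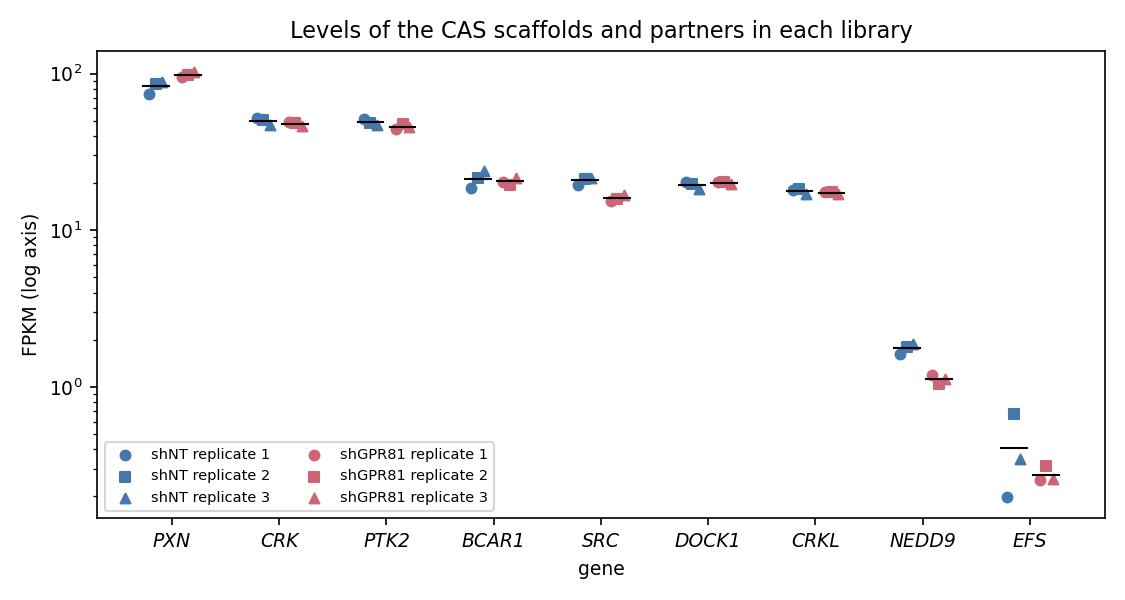
FPKM of each gene of the set on a log axis, with 1 symbol per library (circle, square and triangle for replicates 1, 2 and 3), blue for shNT and red for shGPR81, and a line at each group's mean. CASS4, listed at 0 in all 6 libraries, is not drawn. NEDD9 and SRC sit lower and PXN higher in all 3 shGPR81 libraries, and the groups of the other 6 genes overlap.

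Of the 9 genes tested, NEDD9 was the only one called, that is, changed at an adjusted p under 0.05 and by more than 1.5-fold. It was called lower, and 0 genes were called higher. The paper had already named NEDD9 as decreased in shGPR81 cells from this RNA-seq experiment. The call is therefore no independent result. Over all 14349 genes tested, 1.59% were called lower and 0.955% higher. At an adjusted p under 0.05 alone, 2 members fell, NEDD9 and SRC, and 0 rose, where 3.07% of all genes fell and 2.06% rose. The groups did not overlap for 2 members that were lower and 1 that was higher, against 12.7% and 12.9% of all genes, and overlapped for 6. Counts of 1 or 2 among 9 genes are no result about the set as a whole, and its median log2 fold change was -0.06 beside 0.01 over all genes tested.

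**Figure D2:**
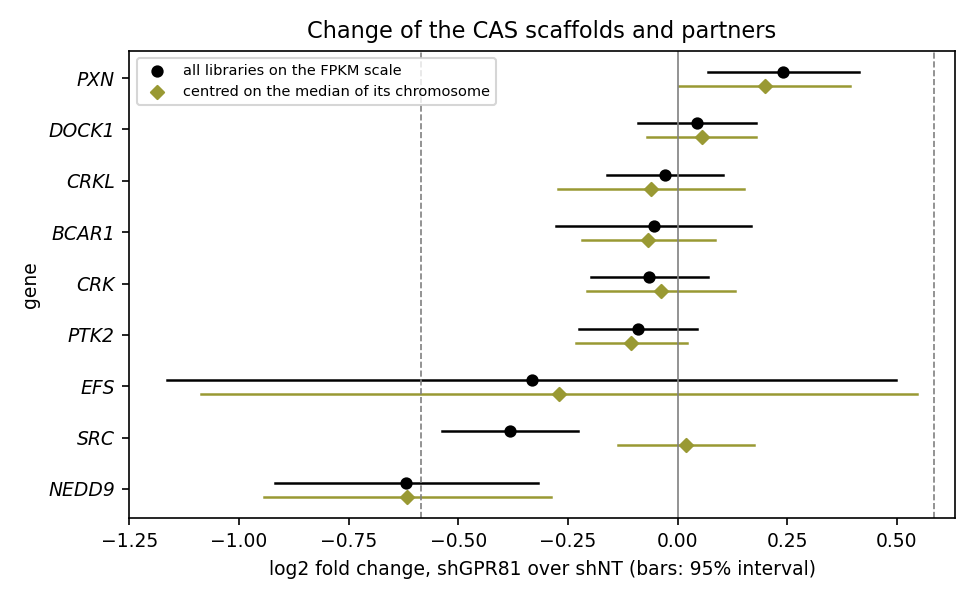
Log2 fold change of each tested gene, shGPR81 over shNT, with its 95% confidence interval from limma. Circles show the FPKM as deposited, and dashed lines mark a 1.5-fold change. Diamonds show the values after each library's median over the genes of the same chromosome was subtracted. SRC moves from -0.38 to 0.02 with the centring. NEDD9 is at -0.62 in both, since the median change of chromosome 6 is close to 0. Its SE goes from 0.13 to 0.14 and its adjusted p in limma from 0.0369 to 0.0562.

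NEDD9, on chromosome 6 from 11183531 to 11382581 on the minus strand (GRCh37), fell to 0.651 times its shNT level. It was at 1.62, 1.80 and 1.87 FPKM in shNT and at 1.18, 1.04 and 1.12 FPKM in shGPR81. All 3 shGPR81 libraries were lower than any shNT library. The means were 1.76 ± 0.128 and 1.11 ± 0.0740 FPKM, and on the scale of log2(FPKM + 0.1), where that fold was fitted, the log2 fold change was -0.62 with an SE of 0.13, a 95% interval from -0.92 to -0.32 and an adjusted p of 0.0369 in limma. The exact permutation test, two-sided, returned p = 0.1, the smallest that 3 against 3 libraries allow. In RNA from whole cultures, fewer cells that express a gene and less of its RNA per cell cannot be told apart. At the length of its canonical transcript the FPKM correspond to roughly 90, 102 and 104 reads in shNT and to 70, 61 and 66 reads in shGPR81. The direction held whichever library was left out, with log2 fold changes from -0.67 to -0.57, but the adjusted p in limma stayed under 0.05 only without shNT replicate 1, at 0.0395. It was 0.137 without shNT replicate 2, 0.106 without shNT replicate 3, 0.101 without shGPR81 replicate 1, 0.137 without shGPR81 replicate 2 and 0.113 without shGPR81 replicate 3.

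BCAR1, the founding CAS scaffold (p130Cas), made up most of the family's FPKM and did not pass the test. Its locus is on chromosome 16 (75262079 to 75301951, minus strand), and its level was 18.6, 21.7 and 23.8 FPKM in shNT and 20.4, 19.5 and 21.6 FPKM in shGPR81. The shGPR81 values fell within the shNT range. Its log2 fold change was -0.05 with an SE of 0.10 and an adjusted p of 0.817 in limma, and the 95% interval of the fold change, 0.826 to 1.12, lay inside 1.5-fold in both directions. Without shNT replicate 3, the highest library, the log2 fold change was 0.03.

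EFS, a CAS scaffold named for its binding to the SRC relative FYN, lies on chromosome 14 (23825612 to 23834961) and was near the limit of detection. It was at 0.199, 0.675 and 0.348 FPKM in shNT and at 0.253, 0.313 and 0.256 FPKM in shGPR81, or roughly 6 to 22 reads per library. The shNT libraries spread widely around the shGPR81 values. The log2 fold change of -0.33 had an SE of 0.36 and an adjusted p of 0.691 in limma. The fold interval of 0.446 to 1.41 still held a 1.5-fold fall, so these libraries do not exclude one. Without shNT replicate 2, which was the highest, the log2 fold change was 0.03.

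NEDD9 was a smaller part of the CAS family's RNA in every shGPR81 library. NEDD9 made up 7.95%, 7.44% and 7.19% of the summed FPKM of the 4 scaffolds in shNT and 5.42%, 4.96% and 4.90% in shGPR81. The groups did not overlap, with means of 7.53% ± 0.391 and 5.09% ± 0.286 and an exact permutation p of 0.1. Conversely, the BCAR1 share was 90.8% ± 0.893 in shNT and 93.6% ± 0.299 in shGPR81, again without overlap, so that BCAR1 stood 12.1 ± 0.640 times above NEDD9 in shNT and 18.4 ± 1.05 times in shGPR81. BCAR1 made up most of the sum and did not pass the test, so these shares and this ratio largely restate the NEDD9 fall. The EFS share overlapped, at 1.70% ± 0.962 and 1.26% ± 0.208. The summed FPKM of the family overlapped as well, at 20.4, 24.2 and 26.1 in shNT and 21.8, 20.9 and 22.9 in shGPR81 (exact permutation p = 0.5). Within shNT, replicate 1 had the lowest NEDD9 level and the highest NEDD9 share.

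**Figure D3:**
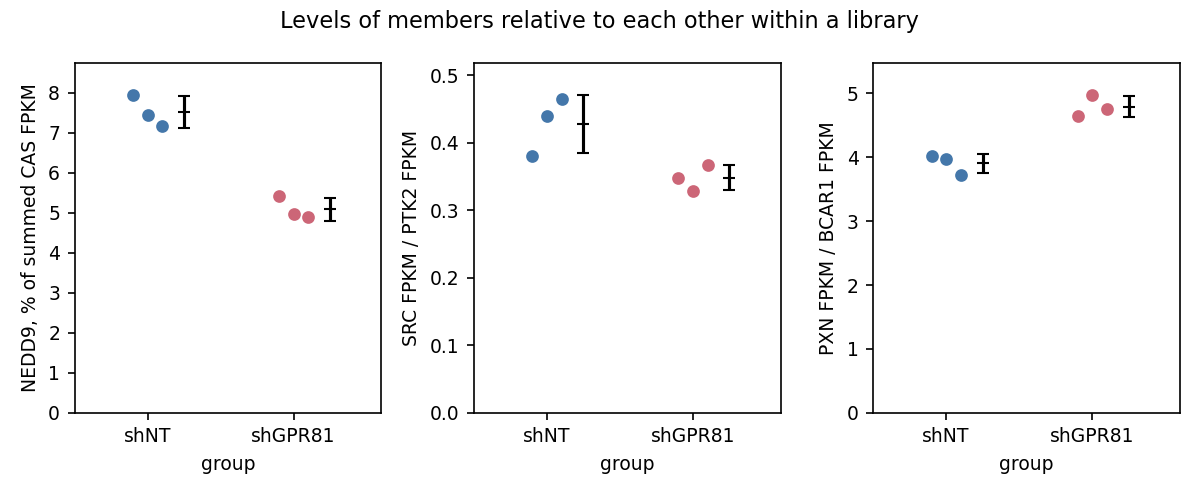
Levels of members relative to each other within each library: NEDD9 as a percent of the summed CAS family FPKM, SRC FPKM over PTK2 FPKM, and PXN FPKM over BCAR1 FPKM. Points are libraries, bars the mean ± SD (n = 3), and axes start at 0. The groups do not overlap in any panel, with NEDD9 share and SRC over PTK2 lower and PXN over BCAR1 higher in shGPR81. NEDD9, SRC and PXN did not overlap as single genes either, and only the NEDD9 share had been planned. The CRK to CRKL ratio and the EFS share overlapped and are not drawn.

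Among the kinases, SRC fell and PTK2 did not pass the test. SRC, the prototype of the SRC family tyrosine kinases, was at 19.6, 21.4 and 21.6 FPKM in shNT and at 15.3, 15.7 and 16.8 FPKM in shGPR81. No value was shared between the ranges. The means were 20.9 ± 1.13 and 16.0 ± 0.760 FPKM, and the log2 fold change was -0.38 with an SE of 0.07, a fitted fold of 0.767 with an interval of 0.689 to 0.854 and an adjusted p of 0.0183 in limma. The change was below 1.5-fold. Leaving out shNT replicate 2 or 3 gave an adjusted p in limma of 0.0942 or 0.0559, and leaving out shGPR81 replicate 1 or 2 gave 0.0956 or 0.0926.

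SRC lies on chromosome 20 from 35973088 to 36034453, and its change was close to the median of that chromosome's genes. Of the 388 tested genes located on chromosome 20, 91.0% were lower in shGPR81. Their median log2 fold change was -0.39, with quartiles of -0.53 and -0.27, and 51.8% of these genes were lower by more than SRC. Taken instead as the group difference of the libraries' medians, chromosome 20 was at -0.40 and the other chromosomes were between -0.10 and 0.11. Each library was then centred on its median level over the genes of each chromosome, a setting chosen for NEDD9 after the data were seen. SRC then had a log2 fold change of 0.02 (adjusted p of 0.923 in limma) and NEDD9 one of -0.62 (adjusted p of 0.0562). A gene at its chromosome's median comes to about 0 by this construction, so the SRC value after centring is no test. Whether the chromosome-wide shift accounts for the SRC values was not tested. CASS4 is on the same chromosome (54987168 to 55035443, plus strand), listed at 0.

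PTK2, which encodes focal adhesion kinase and lies on chromosome 8 (141667999 to 142012315, minus strand), had levels of 51.5, 48.7 and 46.6 FPKM in shNT and of 44.1, 47.8 and 45.9 FPKM in shGPR81. The ranges overlapped. Its log2 fold change of -0.09 had an SE of 0.06 and an adjusted p of 0.466 in limma, with a fold interval of 0.855 to 1.03. The ratio of SRC to PTK2 within a library was 0.380, 0.439 and 0.464 in shNT and 0.348, 0.329 and 0.366 in shGPR81. It was lower in each shGPR81 library, with means of 0.428 ± 0.0433 and 0.348 ± 0.0185 and an exact permutation p of 0.1.

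The adaptors and the exchange factor downstream of the phosphorylated scaffold had narrow intervals. Their loci are on chromosome 17 for CRK (1323983 to 1366456), 22 for CRKL (21271695 to 21308035) and 10 for DOCK1 (128593978 to 129250781). CRK, whose SH2 domain binds phosphorylated CAS proteins, was at 52.3, 50.7 and 47.0 FPKM in shNT and at 48.8, 48.4 and 46.1 FPKM in shGPR81, with a fold interval of 0.872 to 1.05 and an adjusted p of 0.622 in limma. CRKL, its close relative, was between 17.0 and 18.2 FPKM in all 6 libraries, with a fold interval of 0.894 to 1.07 and an adjusted p of 0.840 in limma. DOCK1, the exchange factor for RAC1, was at 20.2, 19.6 and 18.4 FPKM in shNT and at 20.2, 20.2 and 19.6 FPKM in shGPR81, with a fold interval of 0.940 to 1.13 and an adjusted p of 0.749 in limma. None of the 3 passed the test, their groups overlapped, and these intervals lay inside 1.5-fold in both directions for the spread between these libraries. The ratio of CRK to CRKL, at 2.82 ± 0.0747 and 2.75 ± 0.0297, overlapped between the groups (exact permutation p = 0.2). Their sum, the pool of adaptor RNA, was 67.7 ± 3.33 FPKM in shNT and 65.1 ± 1.79 FPKM in shGPR81 (exact permutation p = 0.3).

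PXN encodes paxillin, the adhesion scaffold that binds focal adhesion kinase and vinculin, and was the only member higher in every shGPR81 library. It was at 74.6, 86.1 and 88.9 FPKM in shNT and at 94.8, 97.2 and 102 FPKM in shGPR81. The lowest shGPR81 library was above the highest shNT library. The log2 fold change of 0.24 had an SE of 0.07 and a fold interval of 1.05 to 1.33, but the adjusted p in limma was 0.123, and without shNT replicate 1 the log2 fold change was 0.16. Relative to BCAR1, which it joins at adhesions, PXN was 4.01, 3.97 and 3.73 times as high in shNT and 4.65, 4.98 and 4.75 times as high in shGPR81, without overlap (exact permutation p = 0.1). PXN lies on chromosome 12 from 120648242 to 120703574 on the minus strand, and the antisense RNA gene PXN-AS1 overlaps it by 2795 bases. PXN-AS1 was at 4.44, 6.12 and 5.22 FPKM in shNT and at 5.37, 2.47 and 4.94 FPKM in shGPR81, with an adjusted p of 0.561 in limma. The library kit was stranded, but the strand setting of the counting is not given in the sources used here.

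In shNT, replicate 1 was the lowest library for 5 of the 9 tested members, among them NEDD9, SRC and PXN. It was the highest for 3, PTK2, CRK and DOCK1. Replicate 3 was the lowest for 4 and the highest for 4, and replicate 2 the lowest for 0 and the highest for 2. These counts were not compared with those over all genes.

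Genes around the CAS scaffolds were compiled in 4 lists of 82 genes: partners and exchange factors, kinases and phosphatases, structural proteins of focal adhesions, and NEDD9 partners in mitosis, cilia and protein turnover. Of the 76 tested, 2 were called lower, TNS4 and PTPRA, and 0 higher, beside 1.59% and 0.955% of all genes. At an adjusted p under 0.05 alone, 7 fell and 0 rose, beside 3.07% and 2.06% of all genes. The groups did not overlap for 15 that were lower and 13 that were higher, beside 12.7% and 12.9% of all genes, and the median log2 fold change over the 76 was 0.00. These counts are a description of the lists.

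The genes that fell lay mostly on chromosome 20. All 7 tested list genes on chromosome 20 were lower without overlap, their median log2 fold change being -0.34, and 6 of them had an adjusted p under 0.05. Over all 388 tested genes of the chromosome, 274 were lower without overlap, 183 fell at an adjusted p under 0.05 and the median was -0.39. Of the 69 on other chromosomes, 1 fell at an adjusted p under 0.05, TNS4, beside 3.07% of all genes, chromosome 20 included. Among these 69, 8 were lower and 13 higher without overlap, beside 12.7% and 12.9% of all genes, and the median was 0.02. With each library's chromosome medians subtracted, 0 of the list genes on chromosome 20 had an adjusted p under 0.05 in limma. The subtraction removes the chromosome's shift by construction. Of the list genes on other chromosomes, TNS4 and SH2D3A were under 0.05 in that fit. The share over all 13696 genes fitted was not counted.

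**Figure D4:**
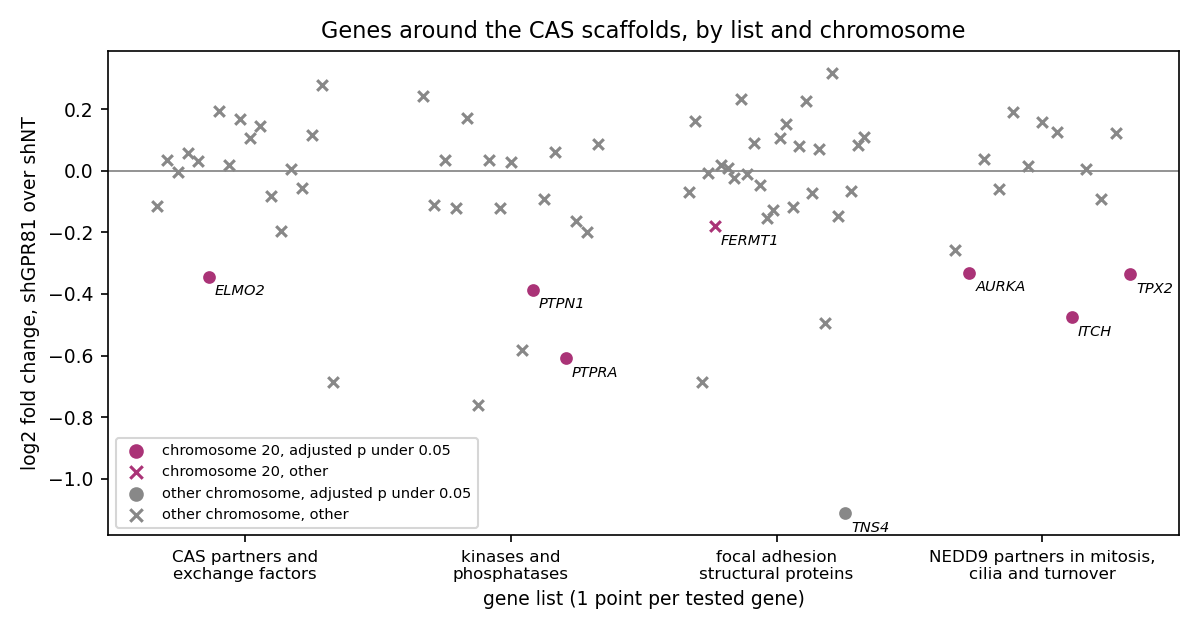
Log2 fold change, shGPR81 over shNT, of the 76 tested genes of the 4 lists, 1 point per gene, spread sideways within its list. Filled circles have an adjusted p under 0.05 in limma, crosses do not, and purple marks chromosome 20: its 7 genes lie between -0.61 and -0.18, and TNS4, at -1.11, is the only circle from another chromosome.

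TNS4, a short tensin that lacks the actin-binding part of its relatives, showed the largest fall of the 4 lists. It lies on chromosome 17 and was at 5.98, 6.09 and 6.88 FPKM in shNT and at 2.77, 2.84 and 2.996 FPKM in shGPR81. Each shGPR81 library was at about the same low level. The log2 fold change was -1.11 with an SE of 0.09 and an adjusted p of 0.00117 in limma, and the adjusted p was between 0.00178 and 0.0128 when libraries were left out in turn. The other tensins gave log2 fold changes of -0.49 for TNS1, 0.32 for TNS2 and -0.15 for TNS3, and none of these passed the test.

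Among the kinases and phosphatases, of which 17 were tested, 2 phosphatases fell at an adjusted p under 0.05, beside 3.07% of all genes. Both are on chromosome 20, where 183 of 388 tested genes did so. PTPRA, a receptor phosphatase known to activate SRC by removing its inhibitory phosphate, was at 36.5 ± 1.54 FPKM in shNT and 23.9 ± 0.978 FPKM in shGPR81. Its log2 fold change was -0.61 with an SE of 0.06 and an adjusted p of 0.00197 in limma, and without shGPR81 replicate 1 it was -0.57, which is below 1.5-fold. After each library's median over the chromosome was subtracted, PTPRA had a log2 fold change of -0.21 and an adjusted p of 0.0934 in limma. PTPN1, the phosphatase PTP1B, went from 46.1 ± 0.816 to 35.2 ± 0.254 FPKM, a log2 fold change of -0.39 with an adjusted p of 0.00377 in limma. PTPN11, the phosphatase SHP2 and the highest of this list, was at 80.5, 72.5 and 71.0 FPKM in shNT and at 69.6, 72.6 and 67.7 FPKM in shGPR81, with an adjusted p of 0.489 in limma. The SRC relatives FYN, YES1 and LYN, none of them on chromosome 20, had log2 fold changes of 0.17, 0.09 and 0.04, and LCK, a low relative at 0.201 ± 0.118 FPKM in shNT and 0.0720 ± 0.0362 FPKM in shGPR81, one of -0.76 without overlap. None of these 4 passed the test.

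Of the partners and exchange factors, 18 of 21 were tested and ELMO2 alone had an adjusted p under 0.05. It fell, as 3.07% of all genes did at that threshold. ELMO2, which forms the exchange factor complex with DOCK1, lies on chromosome 20 and went from 22.6 ± 1.18 to 17.8 ± 1.08 FPKM, a log2 fold change of -0.34 with an adjusted p of 0.0326 in limma. That p was under 0.05 in 1 of the 6 fits that left out a library, the one without shNT replicate 1. On chromosome 20, 183 of 388 tested genes fell at an adjusted p under 0.05. With each library's chromosome medians subtracted, ELMO2 had a log2 fold change of 0.06 and an adjusted p of 0.692 in limma. RAC1, the GTPase that the complex activates and the highest of this list, was at 165, 167 and 181 FPKM in shNT and at 169, 169 and 177 FPKM in shGPR81, with a log2 fold change of 0.00. SH2D3A, an adaptor that binds CAS proteins, was at 2.01 ± 0.175 and 1.22 ± 0.202 FPKM. Its adjusted p of 0.0517 in limma became 0.0498 with each library's chromosome medians subtracted.

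For the 13 NEDD9 partners in mitosis, cilia and turnover, all tested, 3 fell at an adjusted p under 0.05, beside 3.07% of all genes, and all 3 are on chromosome 20, where 183 of 388 did. AURKA, the mitotic kinase that NEDD9 binds and activates, went from 125 ± 2.54 to 99.0 ± 2.23 FPKM, a log2 fold change of -0.33 with an adjusted p of 0.00682 in limma. TPX2, the spindle protein that activates AURKA and the highest of this list, went from 174 ± 4.79 to 138 ± 6.08 FPKM, a log2 fold change of -0.34 with an adjusted p of 0.0113 in limma. ITCH, a ubiquitin ligase of the NEDD4 family, went from 19.3 ± 2.25 to 13.9 ± 1.26 FPKM, a log2 fold change of -0.48 with an adjusted p of 0.0428 in limma. Under the fits that left out 1 library, the adjusted p was under 0.05 in 5 of 6 for AURKA, 3 of 6 for TPX2 and 1 of 6 for ITCH, and it was highest without shGPR81 replicate 1 for AURKA, at 0.0510, without shGPR81 replicate 2 for TPX2, at 0.0673, and without shGPR81 replicate 1 for ITCH, at 0.172. PLK1, the mitotic kinase that AURKA activates, lies on chromosome 16 and was at 91.2 ± 8.11 and 91.5 ± 7.17 FPKM.

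Among the structural proteins of the adhesion, TNS4 alone passed the test, falling at an adjusted p under 0.05 as 3.07% of all genes did. Of the 28 tested, 4 were lower and 6 higher without overlap, where the shares over all genes were 12.7% and 12.9%, and the median log2 fold change was -0.01. ACTN4, the actin cross-linker alpha-actinin 4 and the highest of this list, was at 261, 340 and 359 FPKM in shNT and at 327, 345 and 396 FPKM in shGPR81. Its groups overlapped, with an adjusted p of 0.570 in limma. VCL, which encodes vinculin, the partner of paxillin, was at 101 ± 0.368 and 107 ± 2.21 FPKM, higher in each shGPR81 library with an adjusted p of 0.346 in limma. The paxillin relatives TGFB1I1 and LPXN had log2 fold changes of 0.23 and 0.11, also without overlap, and neither passed the test.

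The genes whose values across the 6 libraries ran most like those of NEDD9 were sought among 11676 tested genes whose mean reached 1 FPKM, by the root mean square difference of their centred log2 values. The nearest were LOC100134868, with a difference of 0.0295, SNN with 0.0364, ABHD12 with 0.0456, CSRP2BP with 0.0474 and IDH3B with 0.0546. Their log2 fold changes were between -0.63 and -0.57, near that of NEDD9 because the search compares the group difference too. SNN is on chromosome 16, and RefSeq places the other 4 on chromosome 20, whereas NEDD9 is on chromosome 6. Genes of chromosome 20 had a median log2 fold change of -0.39 and a first quartile of -0.53. The share of chromosome 20 among all genes as low as NEDD9 was not counted.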

How the data were processed

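RNA from MDA-MB-231 cells with the shNT or shGPR81 hairpin was sequenced as stranded mRNA libraries in single-end reads of 75 bases, with 3 libraries per group. The authors deposited FPKM, 1 value per gene symbol and library. The submitters' processing notes name TopHat2 2.0.13, Bowtie2 2.2.3, SAMtools 0.1.19 and Cuffnorm 2.2.1. The deposited text names the mouse genome and the paper's methods the human one (hg19, GRCh37). The symbols are human, so GRCh37 was used, with positions from GENCODE release 44 mapped to that build. FPKM corrects for length and library scale but not for reads that fit several genes.

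Groups came from the labels. The gene lists, like the members, were chosen with earlier results of these data known. No pair of libraries shared more than 1 identical value above 0. Read counts had been planned for as the first case, and since the table holds FPKM, values were compared as log2(FPKM + 0.1) in limma 3.58.1 (lmFit, eBayes with trend, R 4.3.3) across 14349 genes, those that reached 0.1 FPKM in 3 or more libraries. P-values were adjusted over all of them by the Benjamini-Hochberg method. A call needed both an adjusted p under 0.05 and a change of more than 1.5-fold. Ratios within a library had an exact two-sided permutation test, and of them only the NEDD9 share of the CAS family had been planned. Read numbers came from FPKM steps (tolerance 0.0001) and are rough where a transcript length was assumed. Chromosome centring subtracted, in each library, the median over the genes of a chromosome, and the fit was then repeated. It used 13696 genes with 1 locus, 821 of them found through RefSeq synonyms.

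Named in the text are the 10 members, list genes with an adjusted p under 0.05, the highest gene of each list, the cell markers, HCAR1 and the 5 genes nearest to NEDD9. Other genes named, the antisense gene PXN-AS1, SH2D3A, PLK1, VCL, TGFB1I1, LPXN, the other tensins and the SRC relatives, were added after their values were seen. Alternative settings comprised a block for the replicate number, leaving out every library once, filtering at 1 FPKM or not at all, pseudocounts of 1 and 0.01, median centring, quantile normalization and chromosome centring.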

Additional observations from a re-analysis of the deposited data

How the results depend on the processing

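NEDD9 was lower under all 14 alternatives, with log2 fold changes from -0.67 to -0.39 and adjusted p in limma from 0.0274 to 0.137, under 0.05 in 6. Its log2 fold change was -0.62 with an adjusted p of 0.0771 with a replicate block, -0.62 (0.0645) with no filter, -0.62 (0.0562) with chromosome centring, and -0.67 to -0.57 when libraries were left out in turn. The NEDD9 share of the CAS family, which largely restates the NEDD9 values, stayed lower in shGPR81 under every alternative run for it. SRC had log2 fold changes of -0.43 to -0.35 when libraries were left out and of 0.018 with chromosome centring, the setting whose construction removes the chromosome 20 shift. It was under an adjusted p of 0.05 in 9 of 14. BCAR1 had a log2 fold change of 0.028 without shNT replicate 3 (range over left-out libraries -0.15 to 0.028), and EFS one of 0.027 without shNT replicate 2 (-0.66 to 0.027). EFS was not tested with the filter of 1 FPKM.

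The count of members called, 1, became 0 with the replicate block, with no filter, with a pseudocount of 1, which shrinks low genes, and with chromosome centring, and was 0 to 1 when libraries were left out. Over all genes, 228 lower and 137 higher calls became 142 and 75 with a pseudocount of 1, and 121 to 256 and 65 to 152 with a library left out. List genes called lower numbered 1 to 2 with a library left out, 7 without the fold threshold and 1 without chromosome 20 genes, a setting chosen, like the counts under chromosome centring, after seeing the data. The cause of the other changes was not tested. Libraries with the same replicate number did not deviate together (correlations of 0.12, 0.022 and 0.0058 across genes). The labels give replicate numbers only, so whether these libraries were paired by design is not known. EFS rests on roughly 6 to 22 reads a library, which limits how precisely its change is known.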
